A study of Rattus norvegicus with 12 samples.

Results

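The set described here holds 58 rat genes of the cell cycle and of mitosis, from the cyclins and kinases that open the cycle to the motors and checkpoint proteins that close it. They were listed by symbol, and each was read through the array probe whose RefSeq accession belongs to that symbol, the brightest probe where a gene had several. Of these 58 genes 44 had a probe, out of 13897 genes with a named probe on the array, and all 44 passed the filter on dim probes. The 14 genes with no probe under this match, which are not analysed here, are Ccnd3, Cdk6, Mcm3, Mcm4, Mcm5, Tk1, Cdc25c, Kif11, Plk4, Birc5, Mki67, Top2a, Cenpf and Bub1b. The proliferation marker Mki67 and the topoisomerase gene Top2a are therefore not among the genes measured.

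The study asked how expression changes in a vein that is grafted into an artery, a model of vein graft restenosis. The operated groups are male rats in which the external jugular vein served as a carotid bypass, sampled at days 7, 14 and 28 after surgery, and day 0 is vein from male control rats that had no operation. Each of these 4 days has 3 single-colour Agilent arrays, 12 in all, of total RNA from the vessel that was depleted of ribosomal RNA and labelled with Cy3 along the transcripts. The labels give no strain, age, weight or treatment beyond the operation, and a carotid graft differs from the day 0 vein in flow, pressure and surgical handling together. The series text calls the samples at each graft day independent experiments and says nothing of the kind for day 0, so the p-values measure the spread between these arrays, which may be technical in part. Because RNA came from the whole vessel, more cycling cells and more RNA per cell cannot be told apart in any value below.

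Cells enter the cycle in G1, when D-type and E-type cyclins activate cyclin-dependent kinases and so free E2F transcription factors to switch on genes of DNA replication. Later, cyclins A and B with CDK1 and the factor FOXM1 drive mitosis, the spindle checkpoint holds chromosomes until all are attached, and the anaphase-promoting complex then destroys cyclin B and securin. Medial smooth muscle cells of a normal vein rarely divide, and in vein grafts they, fibroblasts and invading leukocytes are known to proliferate while the neointima forms.

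Promoters of mitotic genes are known for CCAAT boxes, bound by the factor NF-Y, and for the cell cycle homology region, bound by the DREAM and MuvB-FOXM1 complexes. Promoters of replication genes are known for E2F sites. In the RefSeq sequences of the GRCr8 assembly, 44 of the 58 genes (not the same 44 as those with a probe) had an entry, and the 250 bases before each transcription start were searched on both strands. The letters searched were CCAAT for the CCAAT box, TTTGAA or TTCGAA for the cell cycle homology region, and TTCGCGC or TTGGCGC or TTCCCGC or TTGCCGC for E2F. In these genes 4 pairs of matches of different kinds overlapped. A CCAAT box stood in 31 of the 44 windows (70.5%), against 36.1% of the windows of all 27457 genes in the RefSeq table. Homology region letters stood in 17 windows (38.6%), against 18.5% of all genes. E2F letters stood in 11 (25.0%), against 8.5% of all genes. Among the 27 mitosis genes with an entry, 12 (44.4%) held both a CCAAT box and homology region letters, against 6.8% of all genes, and 4 (14.8%) held E2F letters. Among the 10 genes of replication and nucleotide supply, 6 (60.0%) held E2F letters and 2 held both of the other elements. These are matches of short letter strings and no record of binding, and where none is found these letters are only absent from the window.

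The 150 bases before the start are shown for the 6 genes that were called higher on all 3 graft days and hold both elements in that stretch, and for Prc1, which holds both and was called lower at days 7 and 28. Cdk1, which is not shown, also holds both there, with 2 matches of each. It was called lower at day 28 alone, a call kept in 6 of 20 alternatives. Capitals mark CCAAT boxes (read as ATTGG on the other strand) and homology region letters (TTCAAA on the other strand). In Cdca8 a homology region match and a CCAAT box share bases. The GRCr8 positions are Ccnb2 chr8:79981659-79981808 on the minus strand, Cdc25b chr3:138860023-138860172 on the plus strand, Kif23 chr8:71320585-71320734 on the minus strand, Cdca8 chr5:142483200-142483349 on the minus strand, Cdc20 chr5:137255800-137255949 on the minus strand, Pttg1 chr10:28406327-28406476 on the minus strand and Prc1 chr1:143659331-143659480 on the plus strand.
Ccnb2: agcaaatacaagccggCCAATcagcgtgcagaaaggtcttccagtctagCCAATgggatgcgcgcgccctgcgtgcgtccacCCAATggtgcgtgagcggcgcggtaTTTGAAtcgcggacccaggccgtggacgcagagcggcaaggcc
Cdc25b: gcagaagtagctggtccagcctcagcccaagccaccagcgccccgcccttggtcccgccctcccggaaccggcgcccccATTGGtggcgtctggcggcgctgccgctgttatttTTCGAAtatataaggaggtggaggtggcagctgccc
Kif23: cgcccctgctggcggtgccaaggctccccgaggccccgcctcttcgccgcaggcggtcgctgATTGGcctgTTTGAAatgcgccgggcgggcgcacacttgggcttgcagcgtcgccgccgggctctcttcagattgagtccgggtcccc
Cdca8: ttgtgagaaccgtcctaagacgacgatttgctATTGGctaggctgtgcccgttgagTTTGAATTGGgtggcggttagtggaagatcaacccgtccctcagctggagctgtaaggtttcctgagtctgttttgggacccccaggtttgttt
Cdc20: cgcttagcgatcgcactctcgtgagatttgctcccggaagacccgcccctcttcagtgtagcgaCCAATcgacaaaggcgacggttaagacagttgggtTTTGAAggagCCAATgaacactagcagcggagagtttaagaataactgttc
Pttg1: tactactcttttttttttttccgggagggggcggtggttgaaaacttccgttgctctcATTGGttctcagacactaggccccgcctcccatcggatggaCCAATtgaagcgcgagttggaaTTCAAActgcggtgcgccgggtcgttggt
Prc1: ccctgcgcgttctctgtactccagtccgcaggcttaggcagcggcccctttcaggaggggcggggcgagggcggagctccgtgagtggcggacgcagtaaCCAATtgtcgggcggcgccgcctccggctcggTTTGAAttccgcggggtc

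The same stretch of 3 subunits of the replicative helicase is shown with E2F letters in capitals, since these genes differ in their values: Mcm2 was called higher on all 3 graft days, Mcm6 at day 14 only, and Mcm7 on none. Their positions are Mcm2 chr4:122918095-122918244 on the minus strand, Mcm6 chr13:42404353-42404502 on the minus strand and Mcm7 chr12:22163179-22163328 on the minus strand. All 3 hold E2F letters in this stretch. Counted in bases from the start, they lie at -13 to -4 in Mcm2 and at -51 to -42 in Mcm7, where they share bases with a CCAAT box. In Mcm6 they lie at -138 to -129 and at -75 to -66. Whether these letters bear on the calls was not tested.
Mcm2: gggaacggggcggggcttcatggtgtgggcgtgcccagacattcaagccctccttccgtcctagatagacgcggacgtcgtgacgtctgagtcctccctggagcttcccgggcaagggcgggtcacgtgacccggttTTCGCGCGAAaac
Mcm6: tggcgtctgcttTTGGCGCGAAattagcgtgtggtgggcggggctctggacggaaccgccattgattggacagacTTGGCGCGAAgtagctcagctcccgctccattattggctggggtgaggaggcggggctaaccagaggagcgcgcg
Mcm7: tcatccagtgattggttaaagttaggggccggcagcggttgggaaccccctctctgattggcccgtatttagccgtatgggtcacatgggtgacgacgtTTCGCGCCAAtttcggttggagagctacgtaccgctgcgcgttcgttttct

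**Figure D1:**
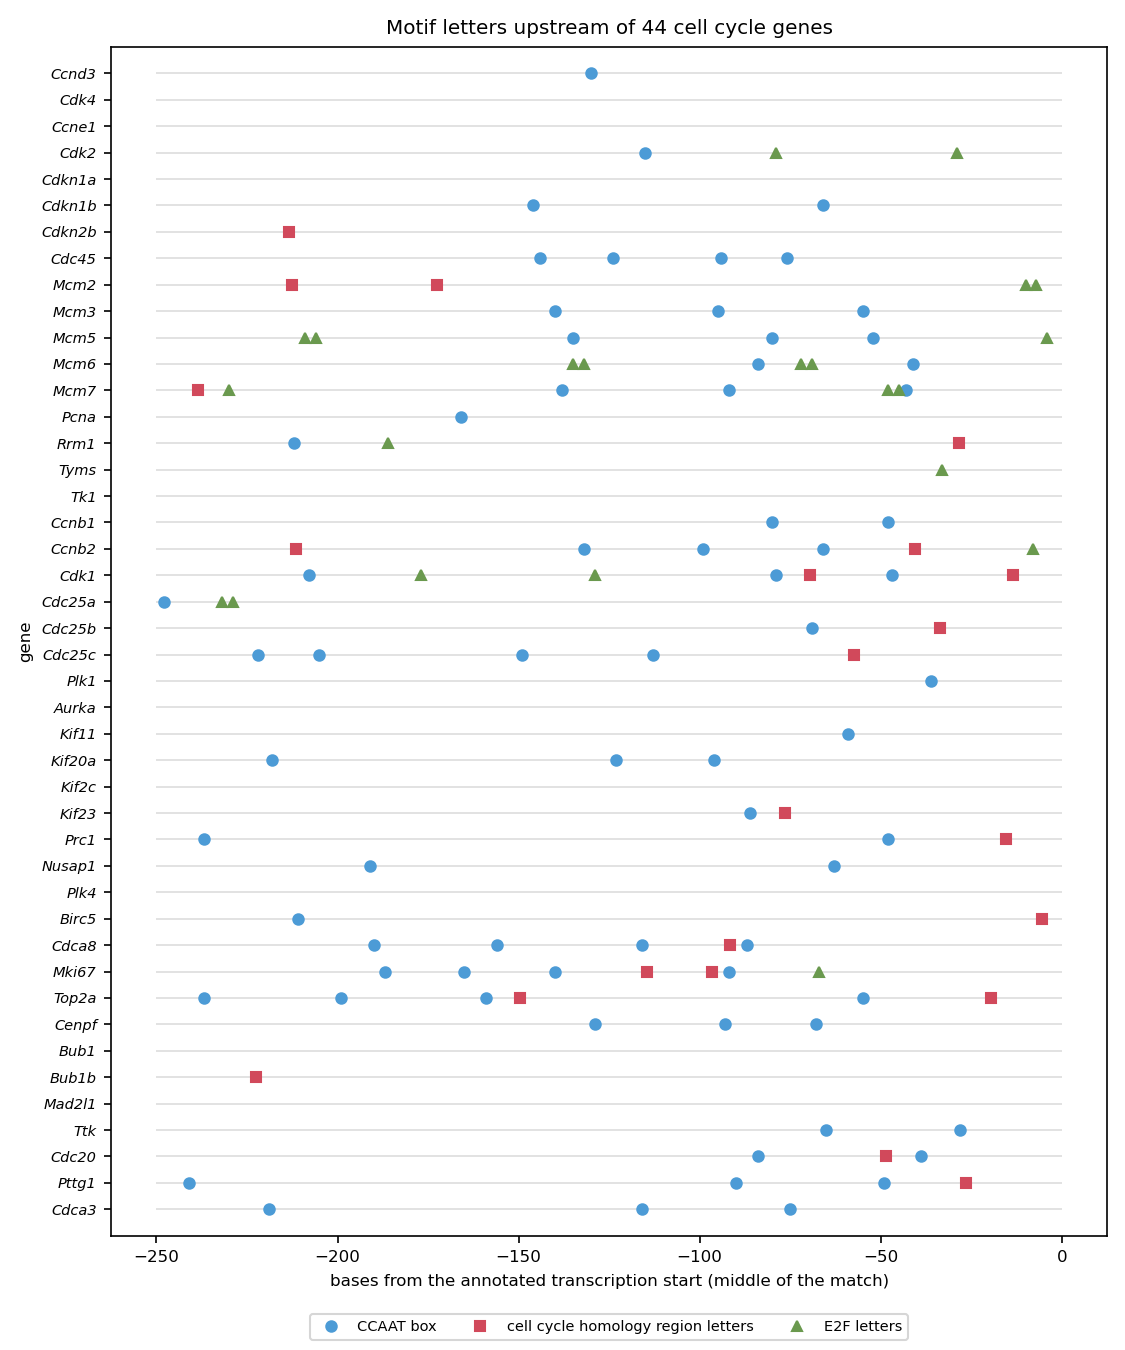
Position of motif letters in the 250 bases before the annotated start of the 44 cell cycle genes with a RefSeq entry, 1 line a gene, with distance from the start in bases on the horizontal axis. Circles are CCAAT boxes (31 genes), squares are cell cycle homology region letters (17 genes) and triangles are E2F letters (11 genes).

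Levels below are log2 intensities of a gene's probe minus the 75th percentile of that array, so that 0 is the intensity of a probe at the 75th percentile. They compare arrays for 1 gene and never 1 gene with another. Differences are given as log2 ± SE from a limma fit over all 12 arrays (3 per day), and called at a Benjamini-Hochberg adjusted p under 0.05 over all 21063 probes tested. The SE pools the spread of all 4 days, while for 30 of the 44 genes the SD was largest at day 0. For such genes the SE of a difference from day 0 can understate the spread of the arrays compared. Of the 44 genes 39 were well above background on all 12 arrays. The exceptions were Aurka on 9 arrays, Tpx2 on 7, Nusap1 on 3, and Ccna2 and Kif2c on 11.

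Before the results, a few facts on the arrays bear on them. Between 71.9% and 82.6% of the gene spots on an array were well above background, and none was saturated. Day 0 replicate 3 and day 7 replicate 3 had 460 and 393 spots marked as not uniform, against 2 to 11 on the other arrays. Day 0 replicate 1 stood apart from the other day 0 arrays: the summed level of 15 macrophage markers was 211 on it, against 44.8 and 97.4 on replicates 2 and 3, on a linear scale where 1 is the 75th percentile. The same sum was 608 to 1104 at day 7, 882 to 977 at day 14 and 516 to 699 at day 28. The 11 contractile smooth muscle markers that were measured summed to 1381 on day 0 replicate 1 and to 2124 and 2074 on the other day 0 arrays, so smooth muscle transcripts were present in the day 0 vein, and they summed to 203 to 463 on the graft arrays. Each graft day against day 0, 12 to 14 of 15 macrophage markers were called higher and 10 or 11 of 11 contractile markers lower. Of 10 T and NK cell markers 8, 9 and 5 were called higher at days 7, 14 and 28, and of 7 fibroblast markers 6, 6 and 4 were (0, 1 and 0 lower). Of 7 erythroid markers 5, 2 and 3 were called higher, and of 4 B and plasma cell markers 2, 1 and 2. Of 7 adipocyte markers 5, 6 and 5 were called lower, and of 7 endothelial markers 4, 4 and 2 (0, 0 and 1 higher). Over all probes 17.7%, 20.1% and 17.4% were called higher on those days and 15.4%, 17.4% and 16.5% lower. No marker measured in these lists was below background on every array. The part of these changes in cell type markers in the cell cycle values was not tested.

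At days 7, 14 and 28, 22, 26 and 21 of the 44 genes were called higher than at day 0, and 3, 2 and 5 were called lower. Over all probes, 17.7%, 20.1% and 17.4% were called higher on those days and 15.4%, 17.4% and 16.5% lower, or 33.1%, 37.5% and 33.9% in either direction. A fit of only the arrays compared called 13, 21 and 13 genes in either direction, where 13.7%, 27.4% and 22.0% of all probes were called. All 3 arrays of the graft day lay above all day 0 arrays for 23, 28 and 23 of the genes, against 19.8%, 25.9% and 23.9% of all probes, and below them for 5, 2 and 6, against 20.1%, 25.2% and 24.4%. The 44 genes had median log2 differences of 0.97, 1.34 and 0.74 on the 3 graft days, where the medians over all probes tested were -0.03, 0.02 and 0.01. The same 21 genes were called higher on all 3 graft days: Ccna2, Ccnb1, Ccnb2, Ccne1, Cdc20, Cdc25b, Cdc45, Cdca3, Cdca8, Cdkn1a, Cdkn1c, Foxm1, Kif20a, Kif23, Kif2c, Mad2l1, Mcm2, Pttg1, Rrm1, Rrm2 and Ttk. Ccnd2 and Cdkn1b were called lower on all 3. For 13 genes no graft day passed the test: Aurka, Aurkb, Bub1, Ccnd1, Ccne2, Cdc25a, Cdk2, Cdk4, Mcm7, Nusap1, Pcna, Plk1 and Tyms. An F test over the days called 28 of the 44 genes, against 40.5% of all probes.

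Day 14 gave the highest mean of the graft days for 32 of the 44 genes, against 39.6% of all probes. Among the 23 mitosis genes this was so for 19, and among the 5 measured genes of replication licensing and firing for all 5. The exceptions with the highest graft mean at day 7 included 3 of the 4 CDK inhibitors. Within a day the arrays spread most at day 0, where the median SD of the 44 genes was 0.67, against 0.25 at day 7, 0.22 at day 14 and 0.11 at day 28. Over all probes tested the median SD was also largest at day 0, at 0.5, against 0.32, 0.18 and 0.18. For the 21 genes higher on all graft days the median SD at day 0 was 0.95, and for 20 of the 21 the highest day 0 array was replicate 1, which holds for 34.7% of all probes. That array was thus nearer to the grafts for these genes, as it was for the macrophage markers.

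**Figure D2:**
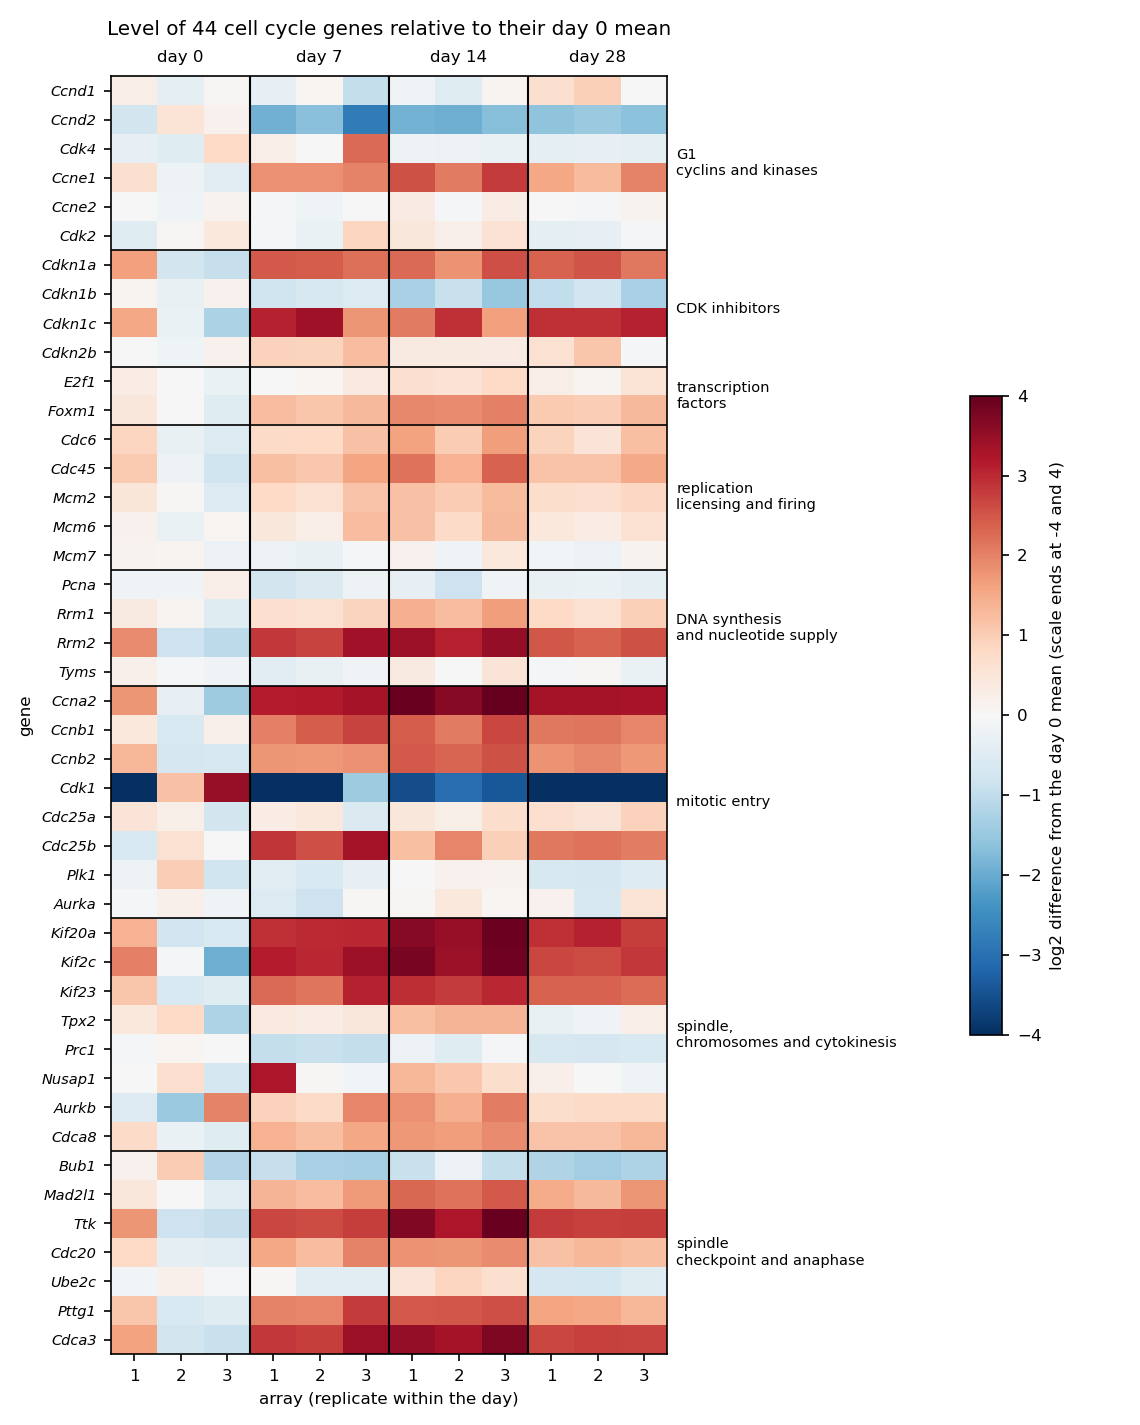
Level of the 44 measured genes (rows, grouped by role) on the 12 arrays (columns, grouped by day), as the log2 difference from the gene's day 0 mean. Red is above and blue below that mean, with the colours ending at -4 and 4. Most rows of the mitotic roles are red on all 9 graft arrays, replicate 1 of day 0 is redder than its companions in those rows, and Cdk1 and Ccnd2 are blue.

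Scans set a limit to these counts, since each array belongs to 1 of 4 scans and the scans hold the days unevenly. Day 7 and day 0 share no scan, nor do day 14 and day 0. With scan as a fixed block in the limma fit, 0 genes were called at day 7, 3 at day 14 (Mad2l1, Foxm1 and Ccne1) and 1 at day 28 (Mad2l1), where 0.266%, 4.91% and 6.48% of all probes were called. The median differences of the 44 genes in that fit were 0.84, 1.33 and 0.68, and no called difference changed its sign. Day 0 replicate 3 is the 1 array of its scan, so it adds nothing to this fit, and its slide position is the one missing from the scan of the other day 0 arrays, so both may be 1 slide. With these 2 scans as 1 block, an alternative chosen after seeing the data, 0, 3 and 3 genes were called at days 7, 14 and 28, where 0.195%, 4.20% and 6.70% of all probes were, and the medians were 1.01, 1.51 and 0.88. Within the 1 scan that held arrays of day 28 and day 0 (1 array against 2), 33 of the 44 genes were higher at day 28, with a median of 0.68, against -0.04 over all probes.

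**Figure D3:**
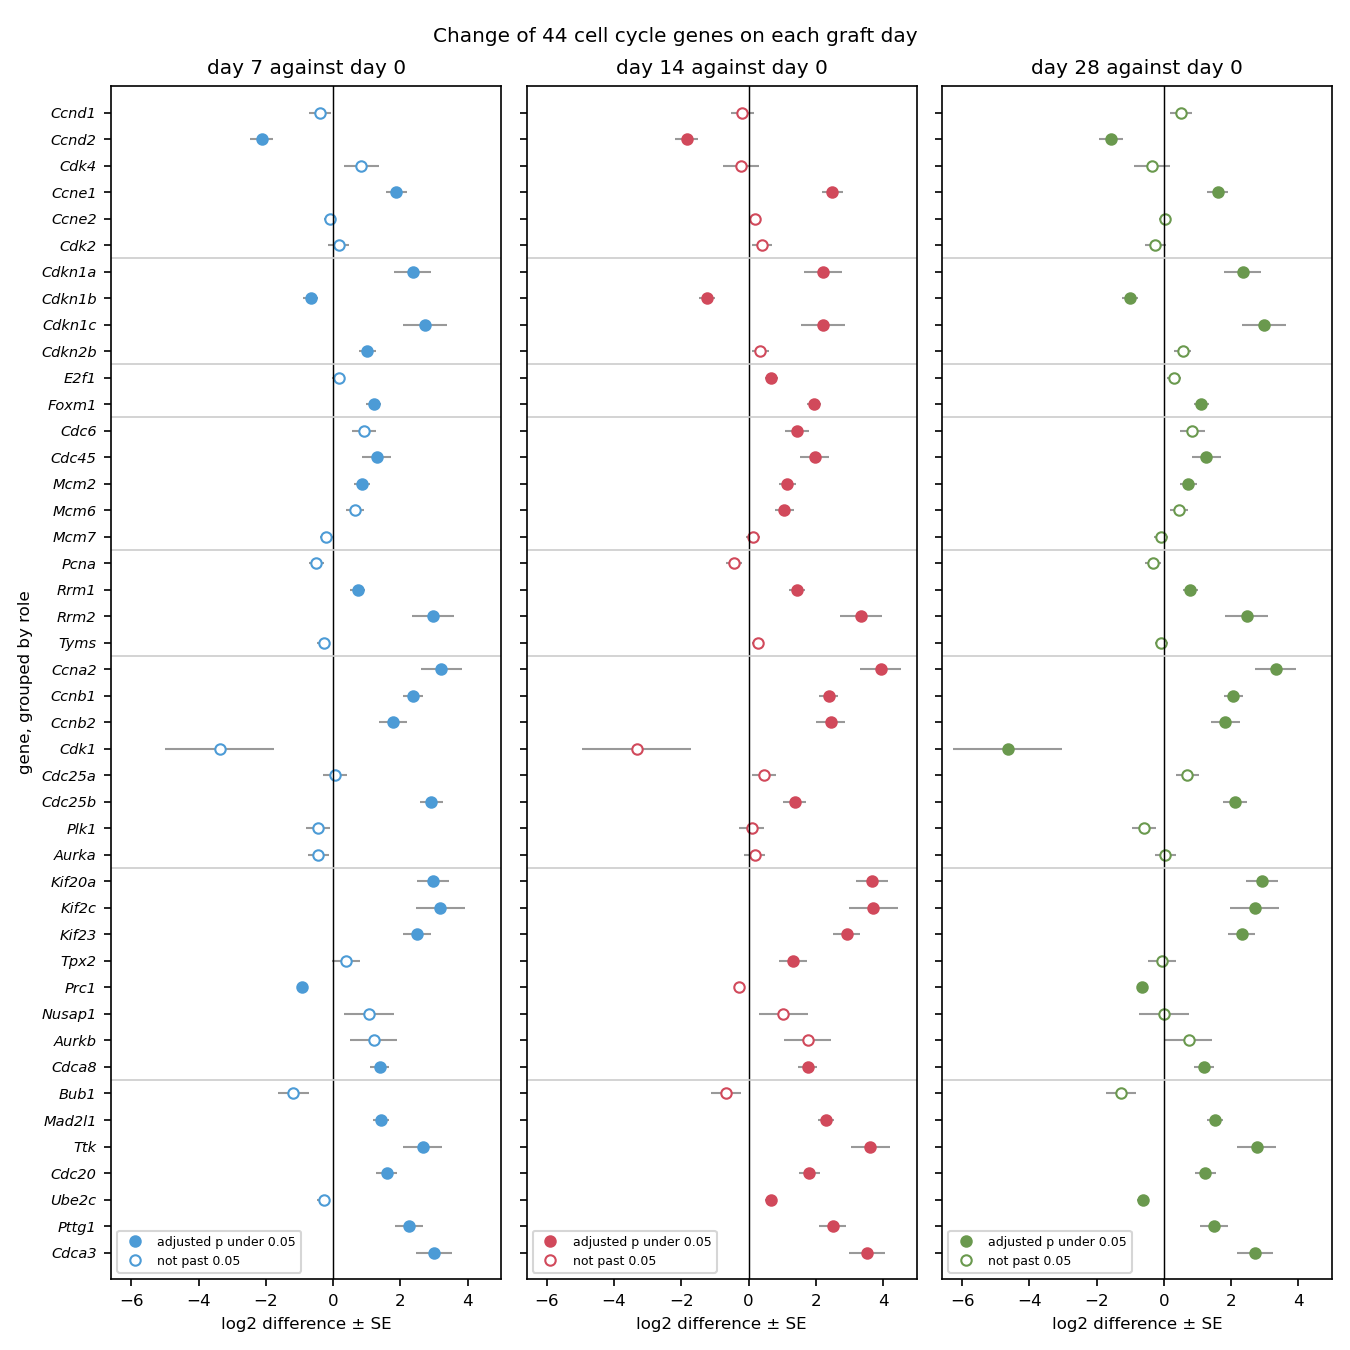
Log2 difference ± SE of each of the 44 genes (rows, grouped by role) at day 7, day 14 and day 28 against day 0, with 3 arrays a day. Filled points passed an adjusted p of 0.05 in limma (25, 28 and 26 genes) and open points did not. The points lie furthest right at day 14, and the wide bars of Cdk1 span several log2 units.

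Among the cyclins and kinases of G1, 6 of 8 genes were measured, and on each graft day 1 was called higher, 1 lower and 4 neither. Ccne1, the cyclin that activates CDK2 at the start of S phase, was the one called higher. Its levels were -1.80, -2.62 and -2.87 at day 0, -0.59, -0.61 and -0.44 at day 7, 0.13, -0.34 and 0.38 at day 14, and -0.88, -1.16 and -0.44 at day 28. Every graft array lay above every day 0 array, and the highest value was at day 14. The differences from day 0 were 1.88 ± 0.31 (adjusted p = 0.00123) at day 7, 2.49 ± 0.31 (adjusted p = 0.000187) at day 14 and 1.60 ± 0.31 (adjusted p = 0.00326) at day 28.

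Ccnd2, a D-type cyclin that couples growth signals to CDK4 and CDK6, was the one called lower. It measured 2.69, 3.95 and 3.58 at day 0, 1.49, 1.75 and 0.60 at day 7, 1.53, 1.46 and 1.70 at day 14, and 1.81, 1.93 and 1.78 at day 28. All 9 graft arrays lay below the 3 day 0 arrays, with the lowest value on day 7 replicate 3. It fell by 2.13 on the log2 scale at day 7, 1.84 at day 14 and 1.57 at day 28 (SE 0.35 each, adjusted p = 0.00128, 0.0023 and 0.00688). Ccnd1, a D-type cyclin induced by growth factors, did not pass on any day and measured 1.09, 0.47 and 0.88 at day 0, 0.48, 0.90 and -0.12 at day 7, 0.67, 0.32 and 0.92 at day 14, and 1.46, 1.76 and 0.80 at day 28. Its arrays of different days overlapped, and its differences were -0.40 ± 0.33, -0.18 ± 0.33 and 0.52 ± 0.33 at days 7, 14 and 28.

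The kinases Cdk2 and Cdk4 and the other E-type cyclin Ccne2 did not pass the test on any graft day. Cdk4 was high on the arrays with many non-uniform spots, at 4.75 on day 0 replicate 3 and 6.21 on day 7 replicate 3, against 3.48 to 4.23 on the other 10 arrays. Cdk2 was 0.17 ± 0.31, 0.40 ± 0.31 and -0.26 ± 0.31 from day 0 at days 7, 14 and 28. Ccne2 differed by -0.10 ± 0.17, 0.19 ± 0.17 and 0.03 ± 0.17.

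CDK inhibitors moved in both directions: of 4 genes 3 were called higher and 1 lower at day 7, and 2 higher and 1 lower at days 14 and 28. Cdkn1a encodes p21, which inhibits cyclin-CDK complexes and is a target of p53. Its levels were 3.19, 0.81 and 0.62 at day 0, 3.98, 3.96 and 3.75 at day 7, 3.82, 3.33 and 4.11 at day 14, and 3.91, 4.07 and 3.66 at day 28. Day 0 replicate 1 was close to the grafts, and the other 2 day 0 arrays were far below all of them. The differences from day 0 were 2.36 ± 0.56 (adjusted p = 0.0088) at day 7, 2.21 ± 0.56 (adjusted p = 0.0106) at day 14 and 2.34 ± 0.56 (adjusted p = 0.00955) at day 28. Without day 0 replicate 1 they were larger, at 3.19, 3.04 and 3.17. With scan as a fixed block they were smaller, at 1.47, 1.39 and 1.66, and none passed in limma (adjusted p = 0.757, 0.5 and 0.258).

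Cdkn1b encodes p27, the inhibitor that holds resting cells out of the cycle. It measured 0.97, 0.55 and 1.03 at day 0, 0.05, 0.20 and 0.30 at day 7, -0.46, -0.03 and -0.68 at day 14, and -0.12, 0.09 and -0.46 at day 28. No graft array reached the lowest day 0 array, and day 14 had the lowest mean. Relative to day 0 it changed by -0.67 ± 0.23 (adjusted p = 0.0452) at day 7, -1.24 ± 0.23 (adjusted p = 0.00198) at day 14 and -1.01 ± 0.23 (adjusted p = 0.00736) at day 28. The call at day 7 was lost when any day 7 array, or day 0 replicate 1 or 3, was left out.

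Cdkn1c, which encodes p57, an imprinted inhibitor expressed in differentiated cells, measured -0.61, -2.41 and -3.41 at day 0, 0.93, 1.23 and -0.40 at day 7, -0.06, 0.77 and -0.50 at day 14, and 0.78, 0.78 and 0.93 at day 28. The graft arrays lay above the day 0 arrays, which themselves spread over a wide range. It differed from day 0 by 2.73 ± 0.66 (adjusted p = 0.00955) at day 7, 2.21 ± 0.66 (adjusted p = 0.0228) at day 14 and 2.97 ± 0.66 (adjusted p = 0.00671) at day 28, and the other 2 probes of the gene gave 2.61 and 2.75 at day 7. At day 28 it was 3.74 without day 0 replicate 1 and 2.34 without day 0 replicate 3, and the day 14 call was lost without day 0 replicate 2 or 3 or day 14 replicate 1 or 2. Cdkn2b, which encodes the CDK4 and CDK6 inhibitor p15, was called higher at day 7 alone, by 1.02 ± 0.26 (adjusted p = 0.0138), with 0.35 ± 0.26 (adjusted p = 0.315) at day 14 and 0.56 ± 0.26 (adjusted p = 0.126) at day 28.

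Both transcription factors were called higher at day 14. Foxm1, whose protein switches on genes of the G2 phase and mitosis, measured -1.02, -1.45 and -1.94 at day 0, -0.25, -0.37 and -0.16 at day 7, 0.45, 0.43 and 0.56 at day 14, and -0.42, -0.48 and -0.18 at day 28. The 3 day 14 arrays were the highest of the 12, the arrays of days 7 and 28 overlapped each other, and all lay above day 0. The differences from day 0 were 1.21 ± 0.22 (adjusted p = 0.00247) at day 7, 1.95 ± 0.22 (adjusted p = 0.00012) at day 14 and 1.11 ± 0.22 (adjusted p = 0.00413) at day 28. E2f1, an activator of replication genes, measured 0.56, 0.25 and 0.01 at day 0, 0.29, 0.34 and 0.65 at day 7, 0.92, 0.86 and 1.07 at day 14, and 0.52, 0.38 and 0.81 at day 28. Its day 14 arrays lay above all the other arrays, while days 7 and 28 overlapped day 0. It was 0.68 ± 0.20 (adjusted p = 0.0212) above day 0 at day 14, with 0.16 ± 0.20 (adjusted p = 0.589) at day 7 and 0.30 ± 0.20 (adjusted p = 0.266) at day 28, and the day 14 call was lost without day 0 replicate 3 or without day 14 replicate 1 or 3.

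Of the 5 measured genes that license and fire replication origins, 2 were called higher at day 7, 4 at day 14 and 2 at day 28, and no gene was called lower. Mcm2, a subunit of the replicative helicase, measured 0.53, 0.10 and -0.49 at day 0, 0.86, 0.66 and 1.20 at day 7, 1.22, 1.05 and 1.31 at day 14, and 0.75, 0.71 and 0.88 at day 28. The graft arrays lay above the day 0 arrays by a small margin. The differences were 0.86 ± 0.25 (adjusted p = 0.0242) at day 7, 1.15 ± 0.25 (adjusted p = 0.0052) at day 14 and 0.73 ± 0.25 (adjusted p = 0.0453) at day 28, and the calls at days 7 and 28 were lost when single arrays were left out.

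Cdc45, which joins the helicase at firing origins, measured -1.81, -3.06 and -3.66 at day 0, -1.65, -1.76 and -1.26 at day 7, -0.69, -1.47 and -0.48 at day 14, and -1.70, -1.71 and -1.35 at day 28. Every graft array exceeded the highest day 0 array, which was replicate 1. It rose by 1.29 ± 0.43 (adjusted p = 0.0402) at day 7, 1.97 ± 0.43 (adjusted p = 0.00496) at day 14 and 1.26 ± 0.43 (adjusted p = 0.0433) at day 28, and the calls at days 7 and 28 were lost without single arrays. Cdc6, which loads the helicase, measured -3.39, -4.55 and -4.80 at day 0, -3.48, -3.44 and -3.09 at day 7, -2.64, -3.22 and -2.57 at day 14, and -3.37, -3.75 and -3.06 at day 28. Day 0 replicate 1 lay among the graft arrays of days 7 and 28, and the day 14 arrays lay above all day 0 arrays. The day 14 difference of 1.44 ± 0.36 (adjusted p = 0.0102) passed the test, with 0.91 ± 0.36 (adjusted p = 0.0757) at day 7 and 0.85 ± 0.36 (adjusted p = 0.0909) at day 28. With normexp background correction the day 14 difference of Cdc6 was 0.64 and the call was lost (adjusted p = 0.508 in limma, with 0.000659 to 0.508 over the alternatives). Mcm6 passed at day 14 as well, with 1.07 ± 0.27 (adjusted p = 0.0104), and Mcm7 on no day, with differences between -0.20 and 0.14.

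Of 4 measured genes of DNA synthesis and nucleotide supply, the 2 subunits of ribonucleotide reductase, which makes deoxyribonucleotides, were called higher on every graft day. The large subunit Rrm1 measured 2.00, 1.73 and 1.16 at day 0, 2.31, 2.25 and 2.52 at day 7, 3.05, 2.87 and 3.29 at day 14, and 2.43, 2.25 and 2.58 at day 28. No graft array overlapped day 0, and day 14 lay above the other graft days on all 3 arrays. It rose by 0.73 ± 0.23 (adjusted p = 0.0334) at day 7, 1.44 ± 0.23 (adjusted p = 0.000872) at day 14 and 0.79 ± 0.23 (adjusted p = 0.0236) at day 28, and the call at day 7 was lost without any of the 3 day 7 arrays or day 0 replicate 2 or 3, and that at day 28 without day 28 replicate 1 or 3. The small subunit Rrm2, whose transcript is tied to S phase, measured 0.19, -2.55 and -2.77 at day 0, 1.13, 0.99 and 1.65 at day 7, 1.71, 1.39 and 1.81 at day 14, and 0.76, 0.65 and 0.84 at day 28. Day 0 replicate 1 lay far above the other day 0 arrays and below every graft array. It rose by 2.97 ± 0.63 (adjusted p = 0.00503) at day 7, 3.34 ± 0.63 (adjusted p = 0.00221) at day 14 and 2.46 ± 0.63 (adjusted p = 0.013) at day 28, and by 4.29 at day 14 without day 0 replicate 1. Over the alternatives the day 14 difference of Rrm2 ranged from 2.81 to 4.29.

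Tyms, the thymidylate synthase gene, measured -2.04, -2.32 and -2.40 at day 0, -2.66, -2.54 and -2.40 at day 7, -1.89, -2.28 and -1.74 at day 14, and -2.30, -2.19 and -2.51 at day 28, and Pcna, the sliding clamp of DNA polymerases, measured 2.90, 2.90 and 3.32 at day 0, 2.32, 2.45 and 2.84 at day 7, 2.72, 2.20 and 2.90 at day 14, and 2.73, 2.77 and 2.65 at day 28. Neither passed the test on any day. Tyms differed from day 0 by -0.28 ± 0.19, 0.28 ± 0.19 and -0.08 ± 0.19 at days 7, 14 and 28, with all day 7 arrays level with or below the lowest day 0 array. Pcna differed by -0.50 ± 0.23, -0.43 ± 0.23 and -0.32 ± 0.23, the opposite sign to Rrm1, Rrm2 and Mcm2.

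Mitotic entry had 8 measured genes, of which 4 were called higher on each graft day: the cyclins Ccna2, Ccnb1 and Ccnb2 and the phosphatase Cdc25b. Ccnb1, the cyclin that activates CDK1 for mitosis, measured -3.59, -4.61 and -3.81 at day 0, -1.99, -1.58 and -1.31 at day 7, -1.59, -1.93 and -1.34 at day 14, and -1.90, -1.85 and -2.05 at day 28. The grafts lay far above day 0 and the 3 graft days overlapped one another. It rose by 2.38 ± 0.29 (adjusted p = 0.000224) at day 7, 2.38 ± 0.29 (adjusted p = 0.000168) at day 14 and 2.07 ± 0.29 (adjusted p = 0.000649) at day 28. Ccnb2 rose by 1.78 ± 0.43, 2.44 ± 0.43 and 1.82 ± 0.43 on those days (adjusted p = 0.0104, 0.00164 and 0.00974), and by 3.10 at day 14 without day 0 replicate 1. Its day 14 difference was 2.0 with scan as a fixed block.

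Ccna2, the cyclin of S phase and early mitosis, measured -2.57, -4.66 and -5.73 at day 0, -1.18, -1.14 and -0.98 at day 7, -0.37, -0.67 and -0.13 at day 14, and -1.0, -0.98 and -1.02 at day 28. The day 0 arrays spread widely, with replicate 1 highest, and replicate 3 was not well above background. The differences were 3.22 ± 0.60 (adjusted p = 0.00267) at day 7, 3.93 ± 0.60 (adjusted p = 0.000689) at day 14 and 3.32 ± 0.60 (adjusted p = 0.00251) at day 28. Without day 0 replicate 1 the day 14 difference was 4.81, without replicate 3 it was 3.23, and with normexp background correction it was smaller, 2.36, and below the 2.89 of Rrm2 and 2.70 of Kif20a in that setting.

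Cdc25b, which removes the inhibitory phosphates from CDK1, measured -1.55, -0.32 and -0.95 at day 0, 1.92, 1.63 and 2.39 at day 7, 0.25, 1.01 and 0.02 at day 14, and 1.17, 1.24 and 1.1 at day 28. Day 7 was the highest day on all 3 arrays and day 14 the lowest of the graft days. It rose by 2.92 ± 0.35 (adjusted p = 0.000201) at day 7, 1.37 ± 0.35 (adjusted p = 0.011) at day 14 and 2.11 ± 0.35 (adjusted p = 0.00154) at day 28. Day 14 was lower than day 7 by -1.56 ± 0.35 (adjusted p = 0.0379), the 1 gene of the 44 called lower in that comparison.

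Cdk1, the mitotic kinase itself, measured -0.05, 5.77 and 8.07 at day 0, 0.32, 0.13 and 3.19 at day 7, 1.04, 1.55 and 1.21 at day 14, and -0.12, -0.11 and 0.06 at day 28. The day 0 arrays disagreed by several log2 units, and day 0 replicate 1 lay among the day 28 arrays. Day 7 replicate 3, the other array with many non-uniform spots, was also far above its companions. The difference at day 28 was -4.65 ± 1.63 (adjusted p = 0.05), just under the threshold, and it was lost in 14 of the 20 alternatives, among them leaving out day 0 replicate 2 or 3 or any day 28 array. Without day 0 replicate 1, 2 or 3 it was -6.97, -4.06 or -2.91. At days 7 and 14 the differences were -3.38 ± 1.63 (adjusted p = 0.14) and -3.33 ± 1.63 (adjusted p = 0.135). Plk1 and Aurka, kinases of mitotic entry and of the centrosome, and Cdc25a did not pass on any day, with differences between -0.60 and 0.70.

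**Figure D4:**
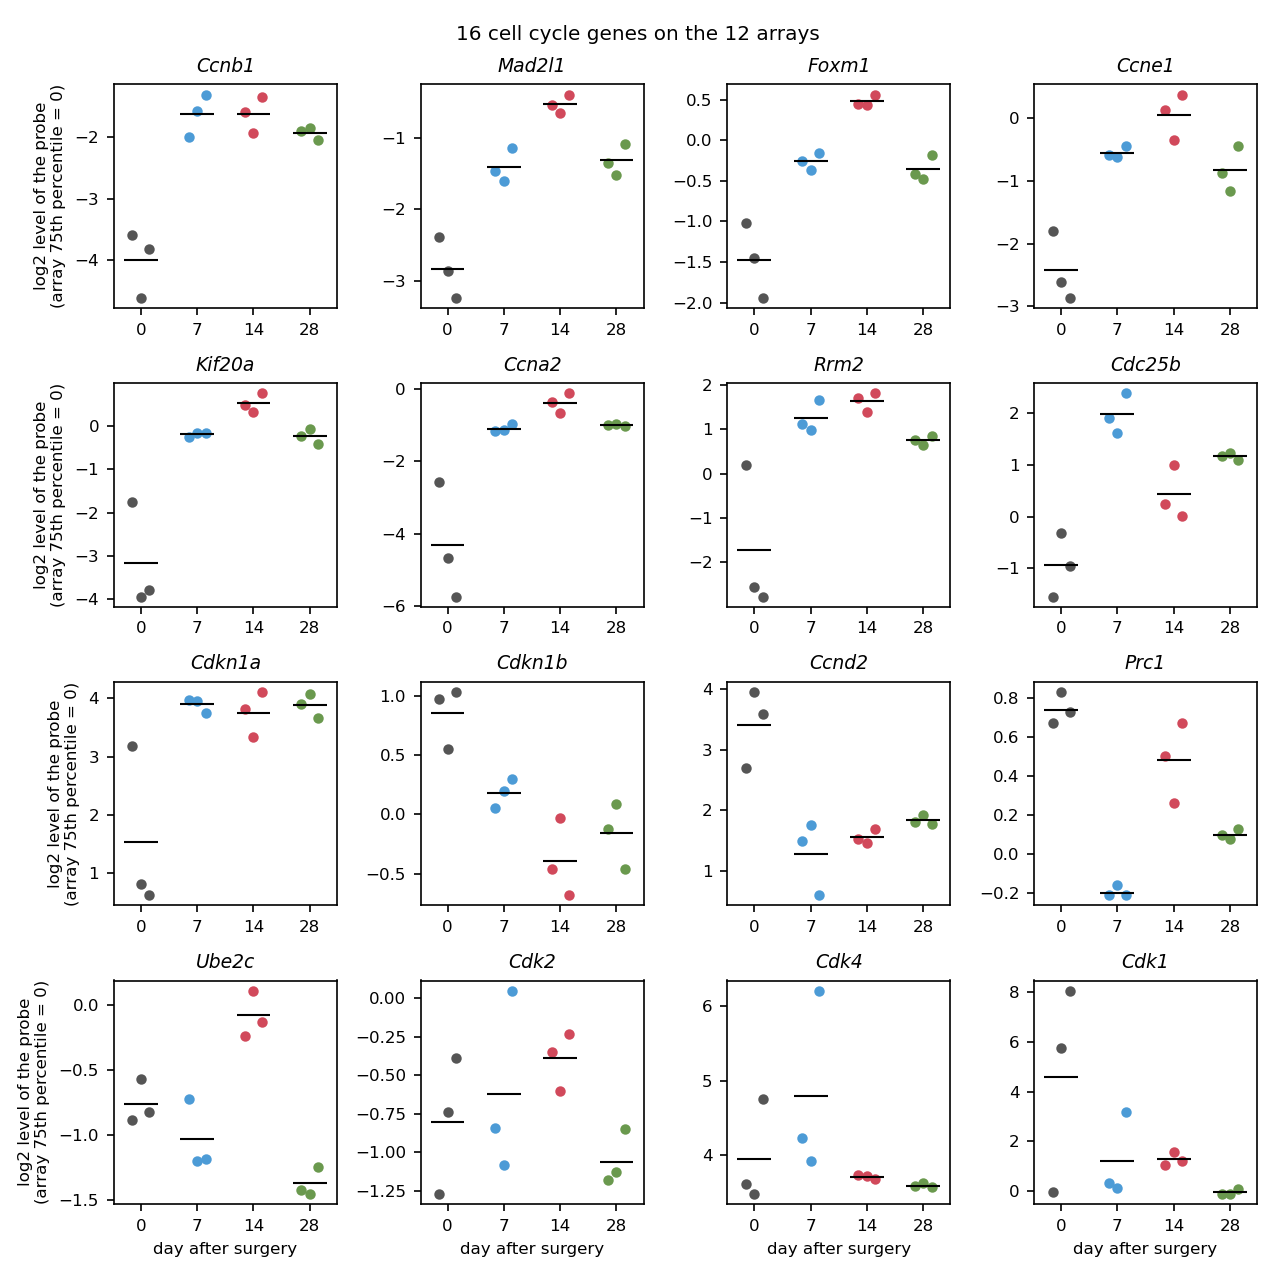
Log2 level of 16 genes on the 12 arrays (array 75th percentile = 0), by day after surgery, with a point per array in the order of replicates 1 to 3 and a line at the mean of the 3. Each panel has its own scale. Ccnb1, Mad2l1, Foxm1 and Ccne1 lie above day 0 on all 9 graft arrays, Cdkn1b and Ccnd2 lie below it, and single arrays stand apart for Cdk4 and Cdk1.

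For the spindle, chromosomes and cytokinesis, 8 of 14 genes were measured, and 4, 5 and 4 were called higher at days 7, 14 and 28. Kif20a, a kinesin needed for cytokinesis, measured -1.76, -3.94 and -3.78 at day 0, -0.25, -0.17 and -0.16 at day 7, 0.49, 0.31 and 0.75 at day 14, and -0.24, -0.08 and -0.41 at day 28. Day 14 was the highest day on all 3 arrays, and day 0 replicate 1 lay between its companions and the grafts. It rose by 2.97 ± 0.47 (adjusted p = 0.00103) at day 7, 3.68 ± 0.47 (adjusted p = 0.000225) at day 14 and 2.92 ± 0.47 (adjusted p = 0.00136) at day 28, 12.8-fold at day 14, and by 4.38 at day 14 without day 0 replicate 1. Over the alternatives the day 14 difference of Kif20a ranged from 2.7 to 4.38. Kif23, the kinesin of the central spindle, measured -1.02, -2.73 and -2.60 at day 0, 0.16, 0.01 and 0.97 at day 7, 0.84, 0.68 and 0.90 at day 14, and 0.24, 0.25 and 0.10 at day 28. All graft arrays lay above day 0, and day 7 and day 14 overlapped. It rose by 2.50 ± 0.41 (adjusted p = 0.00136) at day 7, 2.92 ± 0.41 (adjusted p = 0.00042) at day 14 and 2.31 ± 0.41 (adjusted p = 0.00231) at day 28.

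Kif2c, a kinesin that takes apart microtubules at centromeres, rose by 3.19 ± 0.73 (adjusted p = 0.00782) at day 7, 3.71 ± 0.73 (adjusted p = 0.00301) at day 14 and 2.70 ± 0.73 (adjusted p = 0.0175) at day 28. The gene was not well above background on 1 day 0 array, and at day 14 the difference was 4.72 without day 0 replicate 1, 2.74 without replicate 3 and 2.01 with normexp background correction. Its call at day 28 was lost without day 28 replicate 1. Its other probe gave 3.75 at day 14. Cdca8, part of the chromosomal passenger complex, rose by 1.38 ± 0.29, 1.76 ± 0.29 and 1.20 ± 0.29 (adjusted p = 0.00471, 0.001 and 0.00984). Aurkb, the kinase of that complex, did not pass, at 1.76 ± 0.70 (adjusted p = 0.0726) at day 14, and its day 0 arrays lay at -2.74, -3.69 and -0.24. Tpx2, which activates Aurora A on the spindle, was called at day 14 alone, with 1.32 ± 0.42 (adjusted p = 0.0318), and lost its call when any day 14 array was left out, and it was 0.71 without day 0 replicate 3. With normexp background correction it was 0.10 (adjusted p = 1 in limma, with 0.00846 to 1 over the alternatives). Nusap1, a microtubule binding protein, was above background on 3 arrays and did not pass.

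Prc1, the bundler of microtubules in the central spindle, went the other way. It measured 0.67, 0.83 and 0.73 at day 0, -0.21, -0.16 and -0.21 at day 7, 0.50, 0.26 and 0.67 at day 14, and 0.10, 0.08 and 0.13 at day 28. Day 0 and day 14 overlapped, day 7 was the lowest day on all 3 arrays, and day 28 lay between day 7 and day 14. The differences from day 0 were -0.94 ± 0.15 (adjusted p = 0.00125) at day 7, -0.27 ± 0.15 (adjusted p = 0.197) at day 14 and -0.64 ± 0.15 (adjusted p = 0.00961) at day 28. Its probe differed in sign from Kif20a and Kif23 at days 7 and 28.

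Of 7 measured genes of the spindle checkpoint and of anaphase, 5 were called higher at day 7, 6 at day 14 and 5 at day 28. Mad2l1, which encodes the checkpoint protein that restrains the anaphase-promoting complex, measured -2.38, -2.86 and -3.24 at day 0, -1.46, -1.60 and -1.14 at day 7, -0.53, -0.65 and -0.39 at day 14, and -1.35, -1.52 and -1.08 at day 28. The 3 day 14 arrays were the highest, days 7 and 28 overlapped, and day 0 lay below all. It rose by 1.43 ± 0.24 (adjusted p = 0.00143) at day 7, 2.31 ± 0.24 (adjusted p = 6.88e-05) at day 14 and 1.51 ± 0.24 (adjusted p = 0.00126) at day 28, the smallest adjusted p of the 44 genes at day 14. Its call held in all 20 alternatives at days 14 and 28, and at day 7 it was lost in both fits with scan as a fixed block.

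Cdca3, a mitotic trigger protein, measured -1.69, -4.05 and -4.21 at day 0, -0.48, -0.55 and 0.11 at day 7, 0.21, 0.01 and 0.41 at day 14, and -0.64, -0.59 and -0.60 at day 28. Day 0 replicate 1 lay well above its companions, and day 7 replicate 3 above the other day 7 arrays. It rose by 3.00 ± 0.54 (adjusted p = 0.00228) at day 7, 3.52 ± 0.54 (adjusted p = 0.000734) at day 14 and 2.70 ± 0.54 (adjusted p = 0.00431) at day 28, and by 4.34 at day 14 without day 0 replicate 1. Over the alternatives the day 14 difference of Cdca3 ranged from 2.55 to 4.34. The checkpoint kinase Ttk rose by 2.67 ± 0.58, 3.62 ± 0.58 and 2.76 ± 0.58, securin (Pttg1) by 2.25 ± 0.41, 2.50 ± 0.41 and 1.49 ± 0.41, and the activator of the anaphase-promoting complex Cdc20 by 1.59 ± 0.31, 1.81 ± 0.31 and 1.23 ± 0.31 at days 7, 14 and 28. All 9 of these differences passed the test, with adjusted p-values from 0.000882 to 0.0188. Over the alternatives the day 14 rise of Ttk ranged from 2.23 to 4.50, the latter without day 0 replicate 1. The day 28 call of Pttg1 was lost without day 0 replicate 2 or 3 or day 28 replicate 1 or 2. The checkpoint kinase Bub1 did not pass, with lower means on all graft days and -1.27 ± 0.45 (adjusted p = 0.0521) at day 28.

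Ube2c, the ubiquitin-conjugating enzyme of the anaphase-promoting complex, was called in both directions. It measured -0.88, -0.57 and -0.82 at day 0, -0.72, -1.20 and -1.18 at day 7, -0.24, 0.11 and -0.13 at day 14, and -1.42, -1.45 and -1.24 at day 28. Day 14 was above all day 0 arrays and day 28 below all of them, while day 7 overlapped day 0. The differences from day 0 were -0.28 ± 0.19 (adjusted p = 0.285) at day 7, 0.67 ± 0.19 (adjusted p = 0.0179) at day 14 and -0.62 ± 0.19 (adjusted p = 0.029) at day 28. The day 28 call was lost when day 0 replicate 2 or day 28 replicate 1 or 2 was left out, and the day 14 call without day 14 replicate 2.

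Between graft days few genes passed. Day 14 against day 7 gave 2 genes higher, Ube2c (0.95 ± 0.19 (adjusted p = 0.023)) and Prc1 (0.67 ± 0.15 (adjusted p = 0.0412)), and 1 lower, Cdc25b, where 1.38% of all probes were called higher and 1.88% lower (3.26% in all). All day 14 arrays lay above all day 7 arrays for 16 of the 44 genes and below for 4, against 20.3% and 12.9% of all probes. The median difference of the 44 genes was 0.43, against 0.05 over all probes, and 0.44 within the scan that held 1 day 14 and 3 day 7 arrays, where 37 of the 44 were higher at day 14. The count was 38 with weights for the arrays, where 50.6% of all probes were called, and 0 with scan as a fixed block, where 0.133% were. It was also 0 when day 7 replicate 2 or day 14 replicate 1 or 3 was left out, where 1.36%, 1.07% and 1.24% were.

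Day 28 against day 14 gave 1 gene lower in limma, Ube2c at -1.29 ± 0.19 (adjusted p = 0.00635), and 0 higher, where 2.08% of all probes were called lower and 2.40% higher (4.48% in all). The day 28 arrays lay below all day 14 arrays for 28 of the 44 genes and above for 3, against 27.8% and 22.7% of all probes. All 8 measured genes of the spindle group and all 7 of the checkpoint group were among the 28. The median difference was -0.60, against -0.08 over all probes, and -0.61 within the scan that held 2 arrays of each day. A fit of these 6 arrays alone called 24 genes lower, where 30.2% of all probes were called, and array weights gave 33 lower and 7 higher, where 78.0% were. With the 2 scans of day 0 arrays as 1 fixed block the count was 0, where 0.375% of all probes were called. In the fit over all 12 arrays the spread at day 0 and day 7 enters the error of this comparison.

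Day 28 against day 7 gave 0 calls among the 44 genes, where 0.750% of all probes were called higher and 1.03% lower (1.78% in all). With array weights 22 of the 44 genes passed the adjusted threshold, a smaller share than the 63.8% of all probes that did. The median difference was -0.11, against 0.01 over all probes. The day 28 arrays lay below all day 7 arrays for 10 of the 44 genes and above for 3, against 18.2% and 17.6% of all probes.

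Of 120 further genes in 3 lists 81 were tested, of which 42 were called higher and 2 lower at day 7, 52 and 1 at day 14, and 40 and 6 at day 28, with medians of 0.81, 1.26 and 0.79. The shares of all probes, to set beside each of the 3 lists, were 17.7%, 20.1% and 17.4% higher on those days. They were 15.4%, 17.4% and 16.5% lower, and the medians over all probes were -0.03, 0.02 and 0.01. Among 29 tested genes of replication, 15, 20 and 13 were called higher and 0, 0 and 2 lower at days 7, 14 and 28. The 3 with the smallest F test p were Mcm10, a factor of replication initiation, the histone chaperone Asf1b and the origin recognition subunit Orc1, at 2.96 ± 0.33, 1.96 ± 0.25 and 2.71 ± 0.35 at day 14 (adjusted p = 9.73e-05, 0.000243 and 0.000268). Orc1 was not well above background on 1 of the 3 day 0 arrays. Mcm10 measured -4.66, -5.25 and -5.20 at day 0, -2.90, -3.19 and -1.87 at day 7, -2.04, -2.16 and -2.03 at day 14, and -3.23, -3.61 and -2.99 at day 28. Its graft arrays all lay above day 0.

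Among 33 tested genes of mitosis and cytokinesis, 18, 22 and 17 were called higher and 1, 0 and 4 lower at days 7, 14 and 28. The hyaluronan receptor and spindle protein Hmmr, the centrosomal protein Tacc3 and the centromere protein Cenpu led by F test p, at 3.36 ± 0.38, 3.10 ± 0.35 and 2.88 ± 0.33 at day 14 (adjusted p = 0.00012, 0.000109 and 0.000131). Hmmr was not well above background on 1 of the 3 day 0 arrays. Among 19 tested regulators, 9, 10 and 10 were called higher and 1, 1 and 0 lower. E2f3, an activating E2F, measured -4.29, -4.12 and -4.24 at day 0, -2.32, -2.36 and -2.45 at day 7, -2.20, -1.53 and -2.12 at day 14, and -2.76, -2.80 and -2.86 at day 28. Its arrays were close within days, day 0 included, and the grafts lay clear above it, by 1.84 ± 0.19 (adjusted p = 9.02e-05) at day 7, 2.27 ± 0.19 (adjusted p = 2.12e-05) at day 14 and 1.41 ± 0.19 (adjusted p = 0.000564) at day 28. Ccng2, a cyclin linked to cell cycle arrest, and Gadd45b, a stress response gene, were 1.92 ± 0.18 and 2.60 ± 0.43 at day 14 (adjusted p = 4e-05 and 0.00113).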

How the data were processed

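Total RNA of 12 rat vein samples, 3 at each of 4 days, was measured on single-colour Agilent arrays. The deposited scanner files hold a processed intensity for every spot, from which background was already removed. The submitters' processing notes name Agilent Feature Extraction 11.0.1.1 as the software, and the arrays carry no scaling to each other, per the file headers. A second deposited table gives what look like log2 values by their range, and how they were normalized is not given in the sources used here. Its column medians lay between 7.149 and 7.153, and it served as an alternative.

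Control spots and spots flagged as outliers were left out, spots of a probe were averaged, and log2 intensity minus the array's 75th percentile was taken. The test took the 21063 of 24684 probes that stood well above background on 3 or more of the 12 arrays, with limma 3.58.1 in R 4.3.3 over all arrays (8 residual and 2.32 prior degrees of freedom) and Benjamini-Hochberg adjustment over all of them. RefSeq accessions without versions gave 14286 probes 1 symbol, 0 several and 10398 none, through a RefSeq table of the GRCr8 assembly used for names alone. The scan was read from the file headers, where its 4 values group the arrays. Tables were made in pandas 2.3.3 and NumPy 2.4.6 under Python 3.11.15, figures in Matplotlib 3.10.9, and the fit was tested on simulated data.

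The genes and the other lists were chosen with earlier results of these data known. All 58 genes are accounted for by symbol. Values on each array are given for, in each role, up to 3 genes with the smallest F test p and for every gene called lower on a graft day, and in the other pathway lists up to 3 genes are named, also by F test p. Other genes are described by range, and a few of them, with those called between graft days, were singled out after their values were seen. The alternatives were normexp background correction (offset 50), quantile and median scaling, the deposited table, other filters, scan as a block (also with 2 scans joined), array weights, other arrays in the fit, the mean of a gene's probes, and an adjusted p under 0.01. The mean signal planned for normexp was replaced by the median signal, which the files used here hold. The number of arrays, 12, limits the precision.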

Additional observations from a re-analysis of the deposited data

Results flagged for a closer look

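The difference between 2 graft days, each set against the same day 0 arrays, passed limma's test for a few genes. Cdc25b was lower at day 14 than at day 7 by a log2 difference of -1.56 ± 0.35 (adjusted p = 0.0379). In that comparison Prc1 was higher by 0.67 ± 0.15 (adjusted p = 0.0412), Ube2c by 0.95 ± 0.19 (adjusted p = 0.023) and the kinetochore gene Cenpt by 0.84 ± 0.19 (adjusted p = 0.0374).

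At day 28 against day 14, Ube2c differed by -1.29 ± 0.19 (adjusted p = 0.00635) and Cenpt by -1.07 ± 0.19 (adjusted p = 0.0139). The primase gene Prim1 (-1.04 ± 0.19, adjusted p = 0.018), the origin recognition gene Orc6 (-0.93 ± 0.19, adjusted p = 0.0242) and E2f3 (-0.86 ± 0.19, adjusted p = 0.0349) were also lower at day 28 than at day 14. Cenpt measured -0.44, -0.60 and 0.01 at day 28, against 0.70, 0.70 and 0.77 at day 14, and the groups did not overlap. Prim1 measured 0.35, 0.50 and 0.02 at day 28, against 1.31, 1.22 and 1.45 at day 14, again without overlap. Orc6 measured -1.04, -0.96 and -1.12 at day 28, against -0.09, -0.32 and 0.08 at day 14. All day 28 arrays lay below all day 14 arrays for these 3 genes.

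Cdk2 stood on opposite sides of its day 0 mean, below it on all 3 day 28 arrays and above it on all 3 day 14 arrays, with a log2 difference between those days of -0.66 ± 0.31 that did not pass limma's test (adjusted p = 0.235). Its day 0 arrays lay at -1.27, -0.74 and -0.39. All 3 day 28 arrays (-1.18, -1.13 and -0.85) and day 14 replicate 2 (-0.60) fell within that range.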

How the results depend on the processing

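No paired analysis was possible because every label carries the same replicate number, so no numbers pair arrays across days. The counts below are of the 44 measured genes. With scan as a fixed block, 0, 3 and 1 genes were called at days 7, 14 and 28 against day 0, 0 at day 14 against day 7, and 4 in the F test. Of all probes, 0.266%, 4.91%, 6.48%, 0.133% and 3.85% were called in the same order. With the 2 scans of day 0 arrays as 1 block, chosen after seeing the data, the counts were 0, 3 and 3 at days 7, 14 and 28 against day 0, 0 at day 14 against day 7, 0 at day 28 against day 14 and 1 in the F test. There 0.195%, 4.20%, 6.70%, 0.161%, 0.375% and 3.09% of all probes were called. All 83 called differences kept their sign in both fits, and 4 and 6 kept their call. With scan as a random block the counts were 1 at day 14 against day 7 and 2 at day 28 against day 14. Those comparisons then called 2.75% and 5.12% of all probes. A fit of the compared arrays alone called 13, 21 and 13 genes at days 7, 14 and 28 against day 0, and 24 at day 28 against day 14. Its shares of all probes were 13.7%, 27.4%, 22.0% and 30.2%. Array weights gave 38 at day 14 against day 7, 40 at day 28 against day 14 and 22 at day 28 against day 7, where 50.6%, 78.0% and 63.8% of all probes were called. Without the 2 arrays with many non-uniform spots those first 2 comparisons gave 7 and 8, where 11.5% and 22.8% of all probes were called. At an adjusted p under 0.01, 17 genes were called at day 28 against day 0 and 0 at day 14 against day 7. At that threshold 18.1% and 1.01% of all probes were called. Normexp gave 17 at day 28 against day 0, 0 at day 14 against day 7 and 0 at day 28 against day 14. In those comparisons it called 12.3%, 0.261% and 0.641% of all probes. Normexp also moved the median of all probes at day 7 against day 0 to 0.44, against a median of 1.03 for the 44 genes. Quantile scaling and the deposited table each gave 2 at day 28 against day 14, where 4.72% and 4.95% of all probes were called. Leaving out 1 array at a time gave 21 to 26, 25 to 29 and 19 to 27 calls at days 7, 14 and 28 against day 0, 0 to 2 at day 14 against day 7, 1 throughout at day 28 against day 14, 0 at day 28 against day 7, and 22 to 28 in the F test. Of all probes, 23.8% to 37.4%, 27.2% to 42.2% and 21.7% to 39.9% were then called on those days against day 0. The share was 1.07% to 1.98% at day 14 against day 7, and higher without day 7 replicate 3. It was 0.774% to 2.39% at day 28 against day 14, 0.161% to 1.94% at day 28 against day 7, and 30.1% to 44.8% in the F test. No called difference changed its sign under any alternative that was run, and the causes of these shifts were not tested. Dim probes limit Aurka, Tpx2 and Nusap1, and the day 0 level of Ccna2 and Kif2c.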

Other observations

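The shares of motif letters can be set beside 2 lists that hold none of the 58 genes. Of 46 other mitosis and cytokinesis genes with a RefSeq entry, 24 (52.2%) held cell cycle homology region letters and 20 (43.5%) held them together with a CCAAT box. Of 32 other replication genes 5 (15.6%) held homology region letters and 12 (37.5%) held E2F letters. Among the 17 genes called higher on all 3 graft days that have an entry, 8 (47.1%) held homology region letters, and among the 10 called on no graft day 1 (10.0%) did (Mcm7). In the same order, 12 (70.6%) and 6 (60.0%) held a CCAAT box, and 3 (17.6%) and 4 (40.0%) held E2F letters. These shares were not tested.

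On both arrays with many non-uniform spots a few single probes lay far from the other arrays. Cd3g, a T cell receptor gene, measured 5.80 on day 0 replicate 3 and 5.17 on day 7 replicate 3, against -0.58 to 0.61 on the other 10 arrays. The other tested T and NK cell markers did not move together on these 2 arrays. Cd4 (-4.78), Cd8a (-1.10), Cd2 (-3.16), Lck (-2.59), Prf1 (-3.15) and Nkg7 (-3.05) had their lowest day 0 value on replicate 3. Gzmb (-5.46) had its highest day 0 value there, and Cd3d and Cd3e lay between. On day 7 replicate 3 Cd4 (0.52), Cd8a (2.54), Prf1 (-0.32) and Nkg7 (0.1) were the highest of the day 7 arrays. Cd3e, Cd2, Lck and Gzmb were the lowest there, and Cd3d lay between. On the same 2 arrays Cdk4 measured 4.75 and 6.21 and Cdk1 8.07 and 3.19. Cdk1 was also high, at 5.77, on day 0 replicate 2, which had 3 non-uniform spots. Whether the non-uniform spots bear on these values was not tested.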
